A study of Homo sapiens with 30 samples.

Results

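Small nucleolar RNAs (snoRNAs) and Cajal body RNAs (scaRNAs) were followed across 30 bead arrays of MCF-10A cells, a non-transformed human breast epithelial line. Genes were taken when their annotated symbol began with SNORD (box C/D RNAs), SNORA (box H/ACA RNAs) or SCARNA (Cajal body RNAs). Probes with a detection p-value under 0.05 on 3 or more arrays were used, and each gene was represented by its probe with the highest mean level. The array annotation held 301 such symbols, of which 199 passed, among 13721 genes tested. The 199 comprised 102 of 176 box C/D RNAs, 81 of 101 box H/ACA RNAs and 16 of 24 Cajal body RNAs. Of these, 93 were detected on all 30 arrays, 57 on 15 to 29 and 49 on 3 to 14. The 11 genes detected on exactly 3 arrays averaged 4.58 to 4.77 on the log2 scale, and the 9 genes left out with 2 arrays averaged 4.51 to 4.61. The other 102 symbols have no value in what follows.

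Box C/D RNAs guide the methylation of riboses in ribosomal RNA, and box H/ACA RNAs guide the conversion of uridine to pseudouridine. Cajal body RNAs carry box C/D or box H/ACA elements, or both, and guide the same changes in the small nuclear RNAs of the spliceosome. Most human snoRNAs are not transcribed from their own promoters but are cut out of the introns of longer transcripts, whose exons often encode ribosomal proteins or nucleolar proteins, or no protein at all. Mature snoRNAs carry no poly(A) tail. The labelling kit named in the labels starts from oligo(dT), so a probe for a snoRNA may read the mature RNA or a longer, tailed transcript that contains its sequence, and the arrays do not tell these apart.

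All cells overexpressed cyclin E, carried a stably expressed short hairpin RNA (shRNA) and were harvested after 48 h of culture, per the labels. The shRNAs were shATM, shATR, shCHK1 and shCHK2, against kinases that signal DNA damage and stalled replication, and shControl. Each shRNA was measured in a set 2 and a set 1, with 3 arrays in each of the 10 groups, so the 4 knockdowns gave 12 arrays per set and shControl gave 3 arrays per set. What distinguishes set 2 from set 1 is not stated in the labels, nor whether replicates came from separate cultures, so p-values measure the spread between arrays, which may be technical. Of the probes for these RNAs, 147 to 172 were detected on arrays of knockdown set 2 and 139 to 150 on those of shControl set 2, with 137 to 169 in knockdown set 1 and 135 to 146 in shControl set 1. Nothing in the labels states how many clones a line came from.

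The targeted transcripts checked the labels in part. Relative to shControl, ATM in shATM cells differed by -0.30 in set 2 and -0.67 in set 1 (log2), and CHEK1 in shCHK1 cells by -1.18 in set 2 and -0.38 in set 1. CHEK2 in shCHK2 cells differed by -0.15 in set 2 (limma, adjusted p = 0.343) and -0.55 in set 1. ATR did not fall in the arrays labelled shATR. It differed by 0.03 in set 2 and 0.65 in set 1, from a probe detected on 13 of 30 arrays, and those arrays are therefore called by their label. CCNE1, which encodes cyclin E1, was lower in the knockdowns than in shControl, by -2.07 ± 0.11 (SE) in set 2 and -1.41 ± 0.11 in set 1, and its part in the differences between knockdowns and shControl was not tested. Of 8 epithelial markers, 6 had a kept probe and all 6 were detected on all 30 arrays, while PTPRC, CD3E, COL3A1, PDGFRB, LUM, VWF and KDR had none. The summed linear level of the epithelial markers lay between 12100 and 23200 on knockdown arrays and between 16400 and 23300 on shControl arrays. Single epithelial markers moved with the comparisons made here: between the knockdown sets 1 of the 6 was higher and 5 were lower in set 2 (median -0.71), and the interaction with shControl was called negative for 5 of 6. KRT14, a basal keratin, differed by -3.17 ± 0.07 between the knockdown sets, and KRT8, a luminal keratin, by -1.38 ± 0.07 there and by -2.87 ± 0.11 against shControl in set 2. Against shControl the 6 epithelial markers went both ways, with 3 higher and 3 lower in set 2 (median 0.02). In set 1, 3 were higher and 2 lower (median 0.31). The leukocyte list, carried by CD14 and CD68, summed to 1490 to 2470 on knockdown arrays and to 2640 to 4460 on shControl arrays. The mesenchymal list lay between 68.0 and 217 on knockdown arrays and between 72.4 and 94.6 on shControl arrays. The endothelial list lay between 41.9 and 68.6 on knockdown arrays and between 201 and 317 on shControl arrays. The part of these markers in any result below was not tested.

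Sequences of the RNAs themselves were at hand only where a RefSeq microRNA hairpin lies within the gene, which held for 5 of the 199. For 3 of these the hairpin reaches the 3′ end of the gene, and each carries the ACA box that gives the H/ACA class its name, 3 bases from that end. They are shown to make the class visible, 5′ to 3′, with the ACA box in capitals (RefSeq, GRCh38.p14). SCARNA16 lies at chr17:77089417-77089493 on the plus strand, SCARNA3 at chr1:175968397-175968479 on the minus strand and SNORA84 at chr9:92292461-92292547 on the minus strand, all given for the stretch shown.
SCARNA16: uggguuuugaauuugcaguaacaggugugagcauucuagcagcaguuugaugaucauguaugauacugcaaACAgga
SCARNA3: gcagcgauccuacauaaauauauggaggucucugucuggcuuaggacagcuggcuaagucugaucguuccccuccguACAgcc
SNORA84: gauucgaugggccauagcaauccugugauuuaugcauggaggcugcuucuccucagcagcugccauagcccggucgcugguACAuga

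The genes that contain the snoRNAs have a sequence feature of their own. Genes that encode ribosomal proteins and many snoRNA host genes are known to start transcription at a C followed by a run of pyrimidines, a signal that links translation of their RNAs to growth. The letters CTTTC and CTTTT were searched from 10 bases before to 20 bases after each RefSeq start. Of 120 genes that contain a member, 98 had a start in the table. On the transcribed strand, 36 of these 98 held either of them (36.7%), against 9.42% of all 27305 genes in the table. On the opposite strand 1 of 98 did (1.02%), against 6.78% of all genes. Most ribosomal protein hosts held the letters (14 of 17, 82.4%), and 8 of 22 noncoding hosts did (36.4%). These are descriptions of letters in a window and not of sites in use. The starts of 6 hosts that recur below are shown with 50 bases on either side of the annotated start, and any match in capitals (RefSeq, GRCh38.p14, strand of the gene). In RPL7A the match occurs back to back, and SNHG1 and GAS5 have no match in this window.
TAF1D, chr11:93741446-93741545, minus strand: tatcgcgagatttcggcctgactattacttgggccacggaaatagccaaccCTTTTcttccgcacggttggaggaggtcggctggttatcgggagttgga
SNHG1, chr11:62855836-62855935, minus strand: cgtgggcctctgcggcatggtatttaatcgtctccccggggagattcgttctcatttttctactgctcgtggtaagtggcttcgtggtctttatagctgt
GAS5, chr1:173868996-173869095, minus strand: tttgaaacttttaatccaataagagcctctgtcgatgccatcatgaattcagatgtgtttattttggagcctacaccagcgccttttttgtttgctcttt
ZFAS1, chr20:49278592-49278691, plus strand: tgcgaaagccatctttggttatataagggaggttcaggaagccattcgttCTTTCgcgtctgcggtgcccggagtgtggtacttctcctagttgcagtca
RPL7A, chr9:133348168-133348267, plus strand: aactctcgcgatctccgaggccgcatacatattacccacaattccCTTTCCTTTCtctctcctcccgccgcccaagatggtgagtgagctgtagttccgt
SNHG19, chr16:2155309-2155408, minus strand: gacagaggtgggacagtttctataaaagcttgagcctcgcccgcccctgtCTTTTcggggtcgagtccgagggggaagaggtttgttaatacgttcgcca

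Most box C/D RNAs and many box H/ACA RNAs were higher in knockdown set 2 than in knockdown set 1, and no Cajal body RNA was called higher. A gene was called when its adjusted p (limma, with Benjamini-Hochberg adjustment across the 13721 genes) was under 0.05. On the mean of the 4 knockdowns, 139 of 199 members were called between the sets, 123 higher and 16 lower in set 2, while 58.5% of all genes were called, 25.1% higher and 33.5% lower. By class, 79 of 102 box C/D RNAs were higher and 3 lower, 44 of 81 box H/ACA RNAs were higher and 6 lower, and none of 16 Cajal body RNAs was higher while 7 were lower (unadjusted p under 0.05 gave 1 higher and 8 lower). The median set difference was 0.50 for box C/D RNAs, 0.20 for box H/ACA RNAs, -0.17 for Cajal body RNAs and -0.03 for all genes. With the authors' own log2 values, which correlate with the uncorrected log2 intensities of each array at 0.998 or more, the same medians were 0.23, 0.09, -0.06 and -0.02. Every array of knockdown set 2 lay above every array of knockdown set 1 for 27 of 102 box C/D RNAs (26.5%), 5 of 81 box H/ACA RNAs (6.17%) and 4.99% of all genes.

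**Figure D1:**
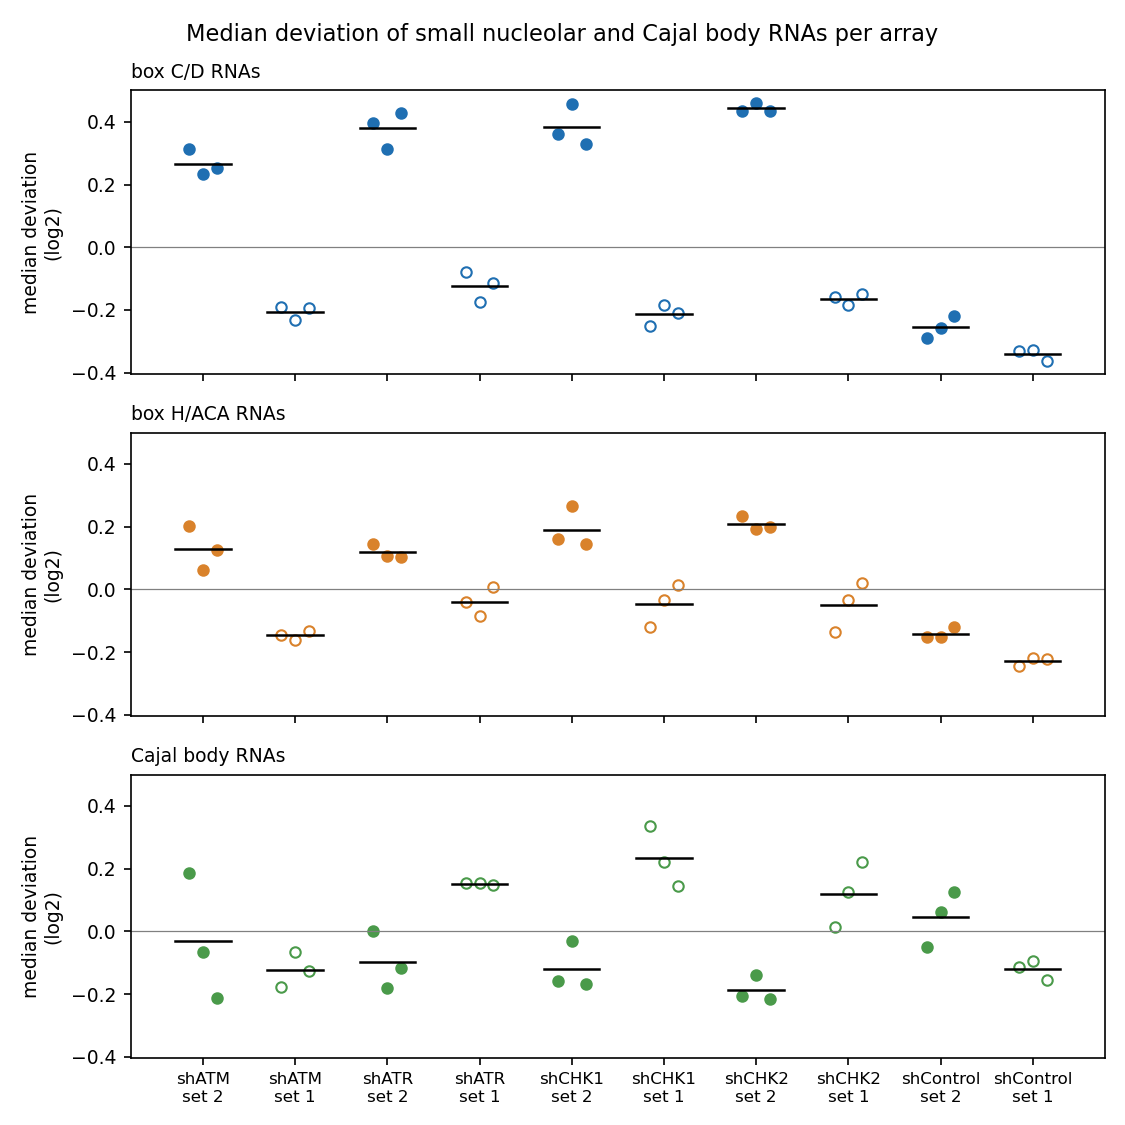
Median over each class of the deviation from each RNA's own mean (log2, vertical axis) on each array, for the 10 groups along the horizontal axis; filled points are set 2, open points set 1, and lines are means of 3 arrays. All 12 knockdown set 2 arrays lie above all other arrays for box C/D RNAs, and for Cajal body RNAs the knockdown sets overlap.

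For the members as a whole, more were higher than lower in set 2 with each shRNA. Set 2 exceeded set 1 for 74 of 199 members in shATM cells, with 4 lower (38.9% of all genes called, 16.4% higher and 22.5% lower). In the arrays labelled shATR 73 were higher and 12 lower (37.1% of all genes, 15.3% higher and 21.9% lower). In shCHK1 cells the counts were 90 and 10 (36.6%, 15.3% and 21.3%), and in shCHK2 cells 84 and 12 (41%, 17.1% and 23.8%). The median set difference of the 16 Cajal body RNAs was 0.06 in shATM cells, with 3 higher and 2 lower. It was -0.35 for the label shATR, -0.36 for shCHK1 and -0.39 for shCHK2, and whether the shRNAs differ in this was not tested. In all 4 knockdowns, 42 members were called higher and 1 lower in set 2, among 17.2% of all genes called the same way 4 times, 6.65% higher and 10.6% lower. Of the 42, 33 were box C/D and 9 box H/ACA RNAs. Counted in both directions, 43 members were called in all 4 knockdowns, and 25 when arrays were scaled by their medians instead of by quantiles.

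SNORA40, a box H/ACA RNA within TAF1D, had the largest positive set difference. Its level ranged between 6.81 and 8.07 (median 7.39) on the 12 arrays of knockdown set 2 and between 4.71 and 5.94 (median 5.49) on those of knockdown set 1. On shControl arrays it was 5.05, 5.17 and 5.37 in set 2 and 5.14, 5.20 and 5.18 in set 1. All 12 knockdown set 2 arrays were above every other array, and knockdown set 1 overlapped the controls. The set difference of the knockdowns was 2.04 ± 0.08 (log2, SE, adjusted p = 7.23e-17), against 0.02 ± 0.17 for shControl.

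SNORD27, which guides methylation of 18S ribosomal RNA and lies within SNHG1, ranged between 6.59 and 7.01 (median 6.74) in knockdown set 2 and between 4.45 and 5.23 (median 4.91) in knockdown set 1. Its shControl values were 4.67, 5.0 and 4.69 in set 2 and 5.24, 4.78 and 4.99 in set 1. Only knockdown set 2 stood apart, with a set difference of 1.84 ± 0.08 (adjusted p = 7.1e-17). The probe was detected on 1 of 3 shControl arrays in set 2, so that the difference from shControl there is a bound, at least 3.59-fold higher in the knockdowns (adjusted p = 1.03e-13). A bound sets each array of the dimmer side no lower than its dimmest detected probe, and is used where most of the dimmer arrays did not detect the RNA.

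SNORD60, a box C/D RNA that guides methylation of 28S ribosomal RNA and lies within SNHG19, ranged between 6.37 and 7.14 (median 6.73) in knockdown set 2 and between 4.62 and 5.53 (median 5.17) in knockdown set 1. On shControl arrays it was 5.03, 5.25 and 5.32 in set 2 and 5.63, 5.24 and 4.93 in set 1. The knockdown sets did not overlap and the control sets did, with set differences of 1.62 ± 0.09 (adjusted p = 2.93e-14) and -0.07 ± 0.18. SNORD50B, within SNHG5, was detected on all 12 arrays of knockdown set 2 and 4 of 12 of knockdown set 1, and was at least 2.61-fold higher in set 2 (adjusted p = 1.34e-11, named here after its values were seen).

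The 3 members lowest in knockdown set 2 relative to set 1 were SNORA12, SCARNA18 and SNORA79. SNORA12, a box H/ACA RNA within CWF19L1, ranged between 4.74 and 6.35 (median 5.45) in knockdown set 2 and between 6.58 and 7.51 (median 7.11) in knockdown set 1. Its shControl values were 6.74, 6.8 and 7.15 in set 2 and 6.0, 6.58 and 6.59 in set 1. Knockdown set 2 lay wholly below knockdown set 1, by -1.59 ± 0.11 (adjusted p = 4.41e-12), whereas the shControl difference was 0.51 ± 0.23 (adjusted p = 0.148).

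SCARNA18, a Cajal body RNA within TMEM167A, was at 6.0 to 7.74 (median 6.88) in knockdown set 2 and at 7.34 to 8.53 (median 8.17) in knockdown set 1. On shControl arrays it was 6.60, 6.82 and 7.08 in set 2 and 6.23, 6.56 and 6.42 in set 1. The knockdown sets overlapped, with a difference of -1.17 ± 0.12 (adjusted p = 9.03e-09), and the control sets did not, at 0.43 ± 0.25 (adjusted p = 0.3). SNORA79, within GTF2A1, was detected on 3 of 12 arrays of knockdown set 2 and 11 of 12 of knockdown set 1, and was at least 1.31-fold lower in set 2 (adjusted p = 3.53e-05).

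**Figure D2:**
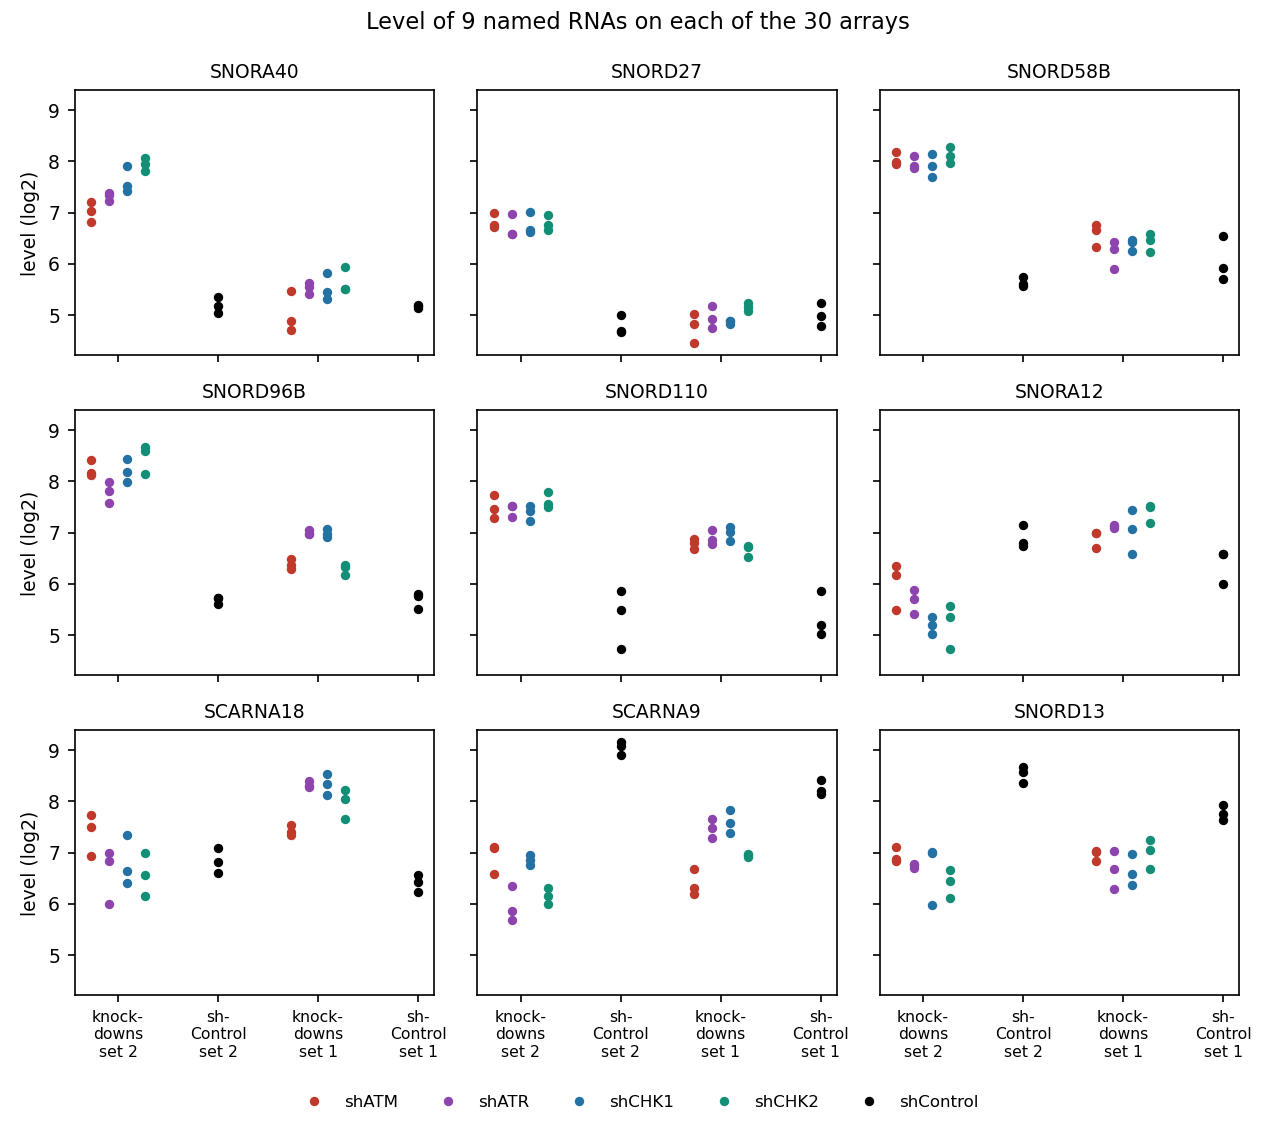
Level (log2, vertical axis) of 9 named RNAs on every array, coloured by shRNA, in the 4 blocks formed by knockdowns and shControl in set 2 and set 1. SNORA40, SNORD27 and SNORD58B stand apart in knockdown set 2, with medians of 7.39, 6.74 and 7.98, SNORD96B and SNORD110 in both knockdown sets, and SCARNA9 and SNORD13 are highest in shControl.

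Between the control sets, 13 members were called, all higher in shControl set 2, while 15.3% of all genes were called, 8.17% higher. Of the 13, 10 were box C/D RNAs, 1 was SNORA67 and 2 were SCARNA9 and SCARNA12. The medians were 0.06 for box C/D RNAs, 0.07 for box H/ACA RNAs, 0.21 for Cajal body RNAs and 0.00 for all genes. The count fell to 6 without shControl set 2 replicate 3, and to 8 without shControl set 2 replicate 2 or without shControl set 1 replicate 1. SNORD22, within SNHG1, was 6.34, 6.16 and 6.15 in shControl set 2 and 5.96, 4.90 and 5.19 in shControl set 1, so that all 3 set 2 arrays were above. Its difference was 0.86 ± 0.21 (adjusted p = 0.00522) and lost its call without shControl set 1 replicate 2, at 0.64. SNORD13, the box C/D RNA U13 known to act in 18S ribosomal RNA maturation, was 8.57, 8.67 and 8.36 in set 2 and 7.63, 7.94 and 7.74 in set 1, again with no overlap. Its difference of 0.76 ± 0.22 (adjusted p = 0.0163) lost its call without shControl set 1 replicate 1 (0.70), shControl set 2 replicate 1 (0.75) or shControl set 2 replicate 2 (0.70).

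The difference between both set differences was itself tested. It was called for 73 members, of which 61 had a more positive set difference in the knockdowns and 12 a more negative one, among 37% of all genes (15.5% positive, 21.5% negative). Box C/D RNAs gave 46 positive and 1 negative call, box H/ACA RNAs 15 and 5, and Cajal body RNAs 0 and 6 (unadjusted p under 0.05 gave 0 and 7). The interaction was below 0 for 15 of 16 Cajal body RNAs, with a median of -0.46, against medians of 0.42 for box C/D RNAs, 0.16 for box H/ACA RNAs and -0.03 for all genes. Median scaling moved the median of all genes to -0.17 and the positive share of the members' calls from 83.6% to 66.0%. Among the largest positive values were those of SNORD58B (2.02 ± 0.19) and SNORA40 (2.02 ± 0.19). SNORD27 had a fitted value of 2.05 ± 0.17, which rests on shControl set 2, where 1 of 3 arrays detected it, and has no settled rank among them. The largest negative ones were those of SNORA12 (-2.10 ± 0.25), SCARNA18 (-1.60 ± 0.28) and SCARNA9 (-1.42 ± 0.18).

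**Figure D3:**
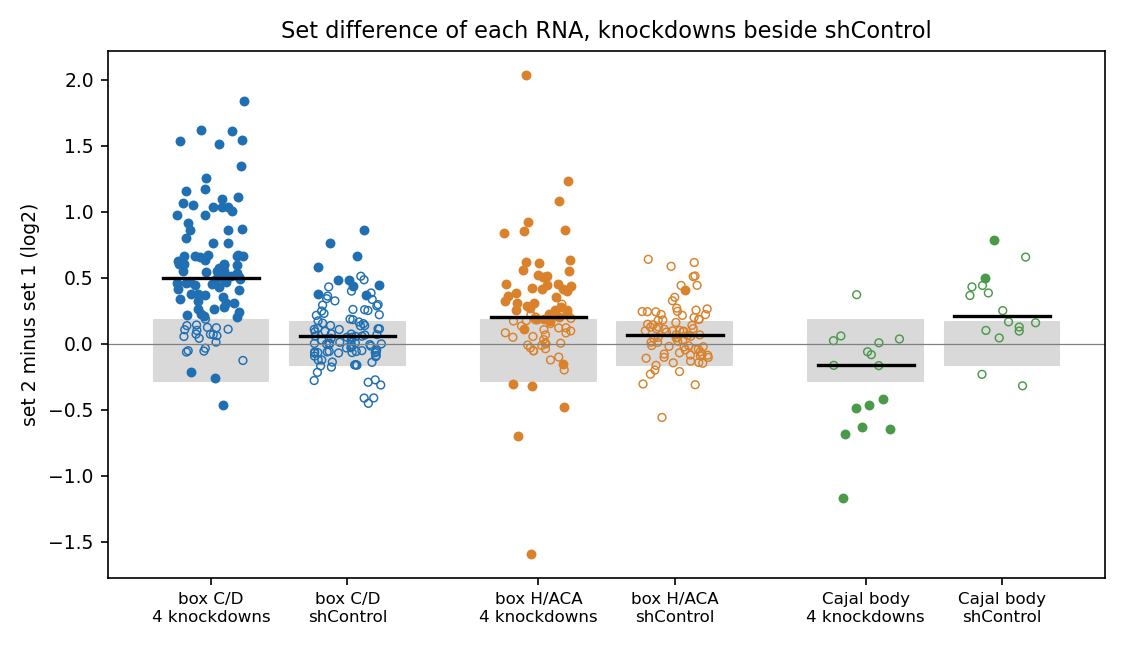
Set 2 minus set 1 (log2, vertical axis) for each RNA, by class, in the mean of 4 knockdowns and in shControl; filled points were called, open points were not, black lines are class medians and grey bands span the interquartile range of all genes. Box C/D RNAs have a median of 0.50 in the knockdowns and 0.06 in shControl, and Cajal body RNAs -0.17 and 0.21.

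Knockdown cells were compared with shControl within each set. In set 2, 107 members were called, 97 higher and 10 lower in the knockdowns, among 60.3% of all genes (28.2% higher, 32.1% lower). In set 1, 72 were called, 56 higher and 16 lower, among 55.7% of all genes (28.1% higher, 27.6% lower). Box C/D RNAs had 66 higher and 4 lower in set 2 and 31 higher and 10 lower in set 1. Box H/ACA RNAs had 30 higher and 3 lower in set 2 and 20 and 5 in set 1, and Cajal body RNAs 1 and 3 in set 2 and 5 and 1 in set 1. The medians in set 2 were 0.62 for box C/D RNAs, 0.24 for box H/ACA RNAs and -0.20 for Cajal body RNAs, and in set 1 they were 0.15, 0.17 and 0.27. All genes had medians of 0.00 in set 2 and 0.01 in set 1. With median scaling the set 1 median of all genes was 0.13. All 12 knockdown arrays lay above all 3 shControl arrays for 46 box C/D RNAs in set 2 (45.1%, against 18.8% of all genes) and for 17 in set 1 (16.7%, against 19.1%).

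SNORD96B, which guides methylation of 5.8S ribosomal RNA and lies within AMMECR1, had the largest positive difference in set 2. It ranged between 7.58 and 8.66 (median 8.16) in knockdown set 2, with shControl at 5.61, 5.74 and 5.73, and between 6.18 and 7.07 (median 6.70) in knockdown set 1, with shControl at 5.51, 5.81 and 5.77. The knockdowns were above shControl on every array of both sets, by 2.48 ± 0.10 in set 2 (adjusted p = 2.82e-17) and 0.96 ± 0.10 in set 1 (adjusted p = 6.7e-09). AMMECR1 itself was lower than shControl, at -0.33 ± 0.10 in set 2 and -0.54 ± 0.10 in set 1. SNORD96A, within RACK1, is annotated at the same length of 72 bases and could share signal with the SNORD96B probe. It was called higher as well, by 2.02 in set 2 and 1.34 in set 1 (named here after its values were seen). The signal can therefore not be assigned to the copy within AMMECR1 alone.

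SNORD58B, which guides methylation of 28S ribosomal RNA and lies within RPL17, ranged between 7.70 and 8.29 (median 7.98) in knockdown set 2, with shControl at 5.58, 5.74 and 5.61. In knockdown set 1 it ranged between 5.90 and 6.76 (median 6.43), with shControl at 6.54, 5.92 and 5.70. The groups were separate in set 2 (2.37 ± 0.13, adjusted p = 3.07e-14) and overlapped in set 1 (0.34 ± 0.13, adjusted p = 0.0325). SNORD58A is a close copy within the same gene and could share signal with this probe.

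SNORD110, which guides methylation of 18S ribosomal RNA and lies within NOP56, ranged between 7.22 and 7.80 (median 7.51) in knockdown set 2, with shControl at 5.50, 5.86 and 4.73. In knockdown set 1 it ranged between 6.52 and 7.11 (median 6.81), with shControl at 5.86, 5.20 and 5.03. No knockdown array overlapped a control array of its set, and the differences were 2.12 ± 0.16 in set 2 (adjusted p = 1.04e-11) and 1.47 ± 0.16 in set 1 (adjusted p = 1.32e-08). SNORD17, a box C/D RNA within SNX5, ranged between 8.93 and 9.35 (median 9.15) in knockdown set 2, with shControl at 7.40, 7.63 and 7.98, and between 8.31 and 8.90 (median 8.66) in knockdown set 1, with shControl at 7.09, 7.29 and 7.30. It too was separate in both sets, by 1.48 ± 0.10 in set 2 and 1.39 ± 0.10 in set 1 (adjusted p = 9.17e-13 and 3.45e-12).

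SCARNA9, which guides modification of the U2 small nuclear RNA and lies within CEP295, had the largest negative difference. It ranged between 5.68 and 7.11 (median 6.46) in knockdown set 2, with shControl at 8.90, 9.07 and 9.15, and between 6.18 and 7.84 (median 7.13) in knockdown set 1, with shControl at 8.21, 8.14 and 8.42. Every knockdown array was below every control array, by -2.57 ± 0.13 in set 2 (adjusted p = 2.32e-15) and -1.15 ± 0.13 in set 1 (adjusted p = 1.99e-08). CEP295 was lower as well, at -0.31 ± 0.09 in set 2 and -0.39 ± 0.09 in set 1. SNORD13 ranged between 5.98 and 7.10 (median 6.77) in knockdown set 2, with shControl at 8.57, 8.67 and 8.36, and between 6.29 and 7.25 (median 6.90) in knockdown set 1, with shControl at 7.63, 7.94 and 7.74. It also lay below shControl on every array, by -1.85 ± 0.17 (adjusted p = 6.53e-10) in set 2 and -0.95 ± 0.17 (adjusted p = 3.3e-05) in set 1.

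SNORD89 and SNORA11D were lower than shControl in both sets. SNORD89, a box C/D RNA within RNF149, ranged between 6.60 and 7.32 (median 7.01) in knockdown set 2, with shControl at 7.71, 7.75 and 7.93, and between 6.0 and 6.83 (median 6.34) in knockdown set 1, with shControl at 7.62, 7.81 and 7.63. No array of the knockdowns reached the controls, and the differences were -0.84 ± 0.13 (adjusted p = 2.73e-06) in set 2 and -1.36 ± 0.13 (adjusted p = 7.85e-10) in set 1. SNORA11D, a box H/ACA RNA within MAGED4, was at 6.42 to 6.95 (median 6.69) and 6.19 to 6.81 (median 6.44) in knockdown sets 2 and 1, against 7.48 to 7.66 and 7.47 to 7.52 in shControl of the same sets. It lay below its controls on all arrays, by -0.87 ± 0.09 in set 2 and -1.04 ± 0.09 in set 1 (adjusted p = 6.54e-09 and 2.83e-10). SCARNA18 and SNORA12, described above, were higher than shControl in set 1, by 1.61 ± 0.20 (adjusted p = 9.47e-08) and 0.72 ± 0.18 (adjusted p = 0.00111). In set 2 SCARNA18 differed from shControl by 0.01 ± 0.20 (adjusted p = 0.973) and SNORA12 by -1.38 ± 0.18 (adjusted p = 2.21e-07).

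Among Cajal body RNAs, SCARNA3 and SCARNA8 were lower than shControl in set 2 (named here after their values were seen). SCARNA3, whose 3′ part is printed above, was lower in knockdown set 2 than in set 1 (-0.65 ± 0.12, adjusted p = 2.49e-05) and than shControl of its set (-0.85 ± 0.18, adjusted p = 0.000232), and differed from shControl by 0.18 ± 0.18 in set 1 (adjusted p = 0.422). SCARNA8 differed from shControl by -0.69 ± 0.20 in set 2 and by 0.65 ± 0.20 in set 1 (adjusted p = 0.00385 and 0.00694). SCARNA10, a bright member that guides modification of the U5 small nuclear RNA, ranged between 7.23 and 8.34 (median 7.92) in knockdown set 2 and between 7.5 and 8.20 (median 7.83) in knockdown set 1. It was called neither between sets nor for the mean of the knockdowns against shControl, and among single knockdowns it was higher than shControl in the arrays labelled shATR of set 1 (0.47 ± 0.18, adjusted p = 0.0359).

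The remaining members named for their level were SNORD36A, SNORD80, SNORA61 and SNORA67. SNORD36A, which guides methylation of 18S ribosomal RNA and lies within RPL7A, ranged between 9.93 and 10.51 (median 10.15) in knockdown set 2 and between 8.78 and 9.20 (median 9.04) in knockdown set 1, with shControl at 9.11, 9.06 and 9.24 in set 2 and 8.93, 8.93 and 8.89 in set 1. Knockdown set 2 was above all other arrays, and its set difference was 1.16 ± 0.05 (adjusted p = 6.52e-16). SNORD80, within GAS5, ranged between 9.51 and 10.31 (median 9.80) in knockdown set 2 and between 8.36 and 9.02 (median 8.75) in knockdown set 1, with shControl at 8.19, 8.48 and 8.5 in set 2 and 8.35, 8.40 and 8.20 in set 1. It was separate in the same way, with a set difference of 1.10 ± 0.06 (adjusted p = 1.29e-14). SNORA61, within SNHG12, moved little between the knockdown sets, with a set difference of 0.11 ± 0.04 (adjusted p = 0.0288), 10.47 to 10.90 in set 2 and 10.37 to 10.72 in set 1. Against shControl it was called higher in set 1 (0.27) and not called in set 2 (0.13). SNORA67, within EIF4A1, had a set difference of -0.16 ± 0.05 in the knockdowns (adjusted p = 0.013) and 0.41 ± 0.11 in shControl (adjusted p = 0.00865). Against shControl SNORA67 was called higher in set 1 (0.755) and not called in set 2 (0.193).

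Each member was placed in the shortest other RefSeq gene whose span contains it, without regard to strand, and 190 of 199 had one. For 159 members, in 98 tested genes, the containing gene had a value of its own (not the same 98 as those with a start sequence). The members were read by the kind of that gene. Within noncoding genes, 34 of 48 members were higher and 4 lower in knockdown set 2 than in set 1, with a median of 0.55, while 25.1% of all genes were higher and 33.5% lower. Within ribosomal protein genes 40 of 49 were higher and 1 lower (median 0.42), and within other protein-coding genes 45 of 93 were higher and 11 lower (median 0.20). Of the 9 with no containing gene 4 were higher and none lower (median 0.12). Noncoding hosts held 32 box C/D RNAs among their 48 members, and other protein-coding hosts 30 among 93, so the kind of host and the class of RNA go together.

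The 7 RNAs within TAF1D, a subunit of the factor that recruits RNA polymerase I, were all higher in the knockdowns than in shControl in set 2. Their differences lay between 0.50 for SNORD6 and 2.28 for SNORA40, with SNORA25 at 1.30 ± 0.09 and SNORA32 at 1.34 ± 0.10. TAF1D itself ranged between 8.87 and 9.52 (median 9.18) in knockdown set 2 and between 7.58 and 8.24 (median 7.81) in knockdown set 1, with shControl between 7.43 and 7.58 in set 2 and between 7.42 and 7.98 in set 1. It was apart in knockdown set 2 as SNORA40 was, by 1.68 ± 0.09 over shControl (adjusted p = 1.87e-14), and by 0.13 ± 0.09 in set 1 (adjusted p = 0.267). In set 1, 5 of the 7 RNAs were called higher, between 0.39 and 0.96, where the host was not called.

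NOP56, a core protein of box C/D particles, carries SNORD56, SNORD57, SNORD110 and SNORA51. The 3 box C/D RNAs were higher than shControl by 1.6 ± 0.12, 2.01 ± 0.09 and 2.12 ± 0.16 in set 2 and by 1.28 ± 0.12, 1.32 ± 0.09 and 1.47 ± 0.16 in set 1. NOP56 was higher in both sets as well, by 1.46 ± 0.08 and 1.19 ± 0.08 (adjusted p = 4.39e-14 and 2.89e-12). It lies on chromosome 20, as do SNX5, which carries SNORD17, and ZFAS1, described below. The 371 tested genes of that chromosome had medians against shControl of 0.275 in set 2 and 0.408 in set 1. All genes had -0.004 and 0.014, and the part of this shift in these differences was not tested. SNORA51, the H/ACA RNA of the same gene, was detected on 3 of 30 arrays and was not called.

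The 5 RNAs within GAS5, a noncoding gene whose exons encode no protein, were all called higher in knockdown set 2, both than in knockdown set 1 and than in shControl. SNORD74, SNORD76 and SNORD80 were higher by 1.10 to 1.26 over knockdown set 1 and by 1.35 to 1.51 over shControl. SNORD44 and SNORD78 were detected on 1 of 12 arrays of knockdown set 1 and none of 3 of shControl set 2, and have bounds only. SNORD44 was at least 1.17-fold and SNORD78 at least 1.28-fold higher than in knockdown set 1 (adjusted p = 9.66e-06 and 5.78e-06), and at least 1.19-fold and 1.3-fold higher than in shControl (adjusted p = 0.000522 and 0.000339). In set 1, 2 of the 5 were called higher than shControl, SNORD76 at 0.58 and SNORD80 at 0.44. The GAS5 probe itself was detected on 7 of 30 arrays and gives no usable comparison (0.05 ± 0.09 between the knockdown sets). Within SNHG1, the set differences of the knockdowns spread between 0.07 for SNORD31 and 1.84 for SNORD27, against 0.38 ± 0.06 for SNHG1 (adjusted p = 2.99e-06). The RNAs of SNHG1 thus spread over a range many times their errors of 0.05 to 0.11.

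Some members in ribosomal protein genes went with no call of the host's own probe, or with a call of the other sign. SNORD16, within RPL4, ranged between 8.38 and 8.76 (median 8.64) in knockdown set 2 and between 7.17 and 7.94 (median 7.72) in knockdown set 1, with shControl at 6.68, 6.55 and 7.14 in set 2 and 6.43, 6.36 and 6.26 in set 1. The knockdowns were above shControl on every array, by 1.81 ± 0.11 in set 2 and 1.34 ± 0.11 in set 1 (adjusted p = 1.05e-13 and 5.18e-11), while RPL4 differed by -0.33 ± 0.08 (adjusted p = 0.00139) and -0.08 ± 0.08. Of the 3 RNAs within RPL7A, SNORD36A and SNORD36C were higher than shControl in set 2, by 1.05 and 0.38. SNORD24 was detected on 0 of 3 shControl arrays of set 2 and was at least 1.22-fold higher in the knockdowns (limma, adjusted p = 0.00022). The 3 were not called in set 1, where they differed by 0.02 to 0.16. RPL7A itself differed from shControl by 0.144 ± 0.075 in set 2 (limma, adjusted p = 0.101) and -0.189 ± 0.075 in set 1 (adjusted p = 0.0345). Between the knockdown sets RPL7A was higher in set 2 (0.343 ± 0.047, adjusted p = 6.67e-07), as all 3 of its RNAs were. ZFAS1, another noncoding host, was higher by 0.20 ± 0.08 in set 2 (adjusted p = 0.0431) and lower by -0.23 ± 0.08 in set 1 (adjusted p = 0.0214). Its SNORD12, SNORD12B and SNORD12C were higher in set 2, by 0.78 to 1.10. In set 1, where ZFAS1 was lower, SNORD12 and SNORD12B were higher, by 0.66 ± 0.11 and 0.69 ± 0.11, and SNORD12C differed by -0.17 ± 0.09 (adjusted p = 0.112). None of the 5 RNAs within MEG8, between -0.10 and 0.17, was called in set 2, while between the knockdown sets 2 were called higher and 1 lower. SNORD113-4 was detected on 7 of 12 arrays of knockdown set 2 and 2 of 12 of set 1, and SNORD114-7 on 0 and 5 of 12. Differences are compressed at such levels, so small values there do not show that these RNAs were unchanged. The close copies among SNORD12, SNORD113 and SNORD114 RNAs may share signal between their probes.

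**Figure D4:**
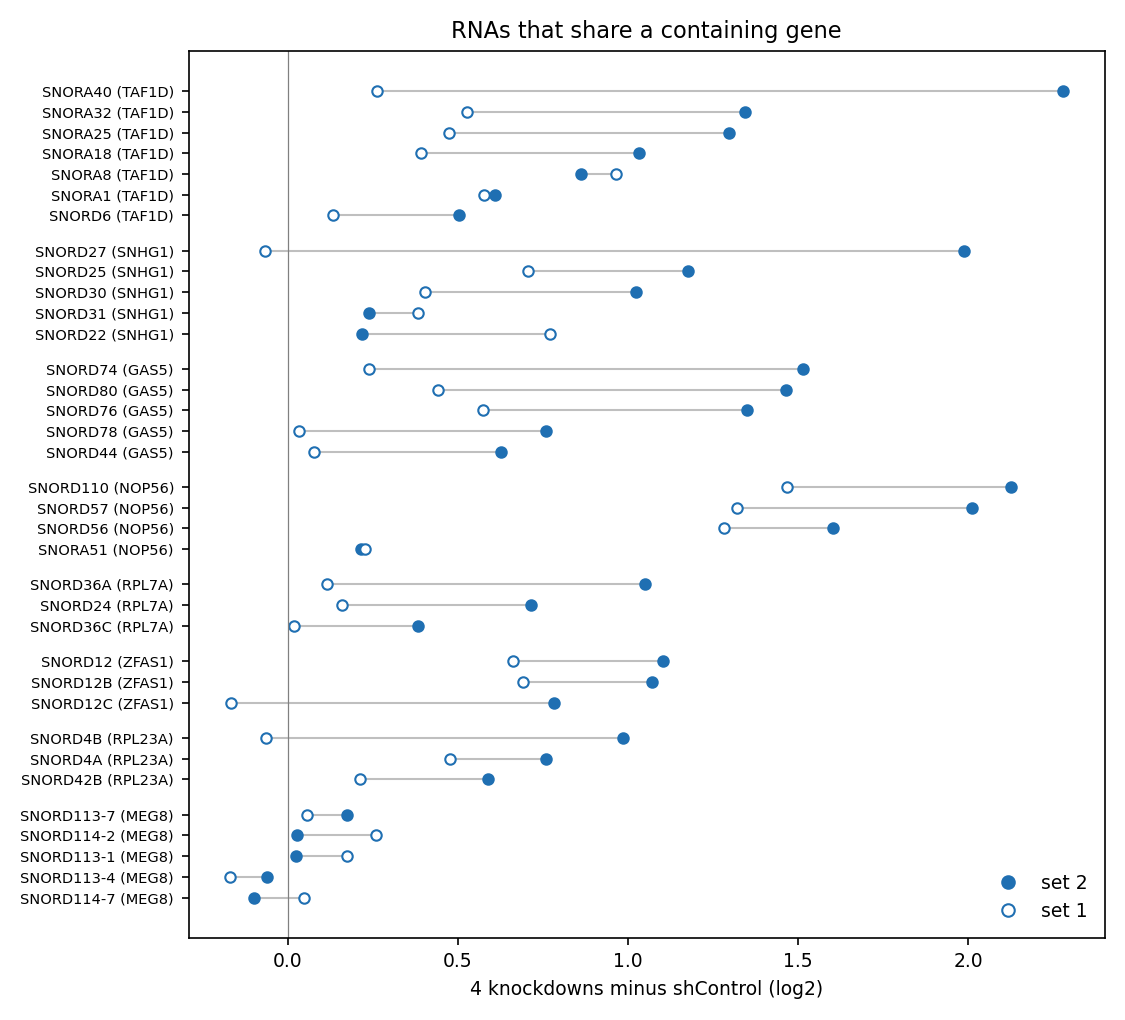
Mean of 4 knockdowns minus shControl (log2, horizontal axis) in set 2 (filled) and set 1 (open) for members grouped by the gene that contains them, named in brackets. The box C/D RNAs of NOP56 lie above 1 in both sets, SNORD74, SNORD76 and SNORD80 of GAS5 between 1.35 and 1.51 in set 2, and those of MEG8 near 0. Points of SNORD24, SNORD27, SNORD44 and SNORD78 in set 2 and of SNORA51 are fitted values against shControl arrays that mostly did not detect the RNA. SNORD114-7 of MEG8 was detected on 0 of 12 arrays of knockdown set 2.

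Across the 159 members with a tested host, the difference between knockdowns and shControl correlated with that of the host at r = 0.29 in set 2 and 0.46 in set 1, as a description over members that share hosts and arrays. Of the 78 members called higher in set 2, the host was higher for 36, lower for 10 and not called for 32. In set 1 the host was higher for 17 of 44, lower for 6 and not called for 21. Of 10 members called lower in set 1, 8 had a lower host, and of 6 called lower in set 2, 2 did. Between the knockdown sets 13 members with a tested host were lower, and the host was lower for 1 and higher for 8. Among the 98 hosts themselves, 37 were higher and 26 lower than shControl in set 2, and 26 and 25 in set 1.

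**Figure D5:**
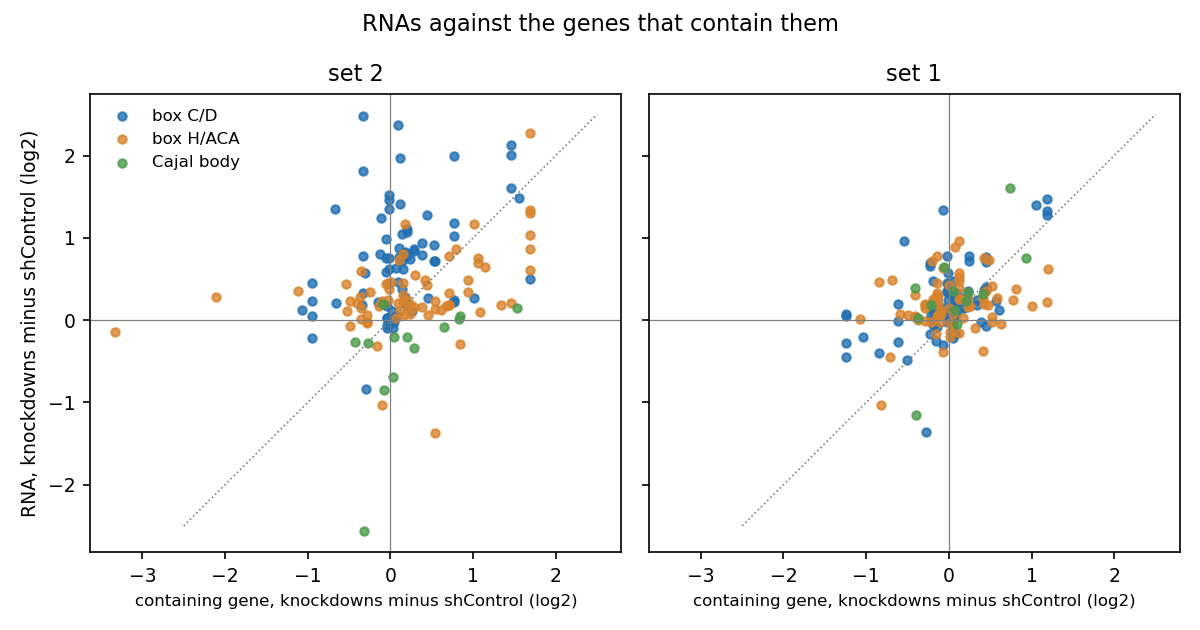
Knockdowns minus shControl (log2) of each RNA (vertical axis) against that of the gene containing it (horizontal axis), in set 2 (left) and set 1 (right), coloured by class; the dotted line marks equal differences. Many box C/D RNAs in set 2 lie above the line, and the correlations are 0.29 in set 2 and 0.46 in set 1.

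U3, the box C/D RNA needed for cleavage of the ribosomal RNA precursor, is transcribed from its own promoters. Its copies SNORD3A and SNORD3D had no containing gene (named here with SNORD3C after their values were seen), and being near-identical they may share signal. SNORD3A ranged between 7.53 and 9.56 (median 8.78) in knockdown set 2 and between 7.74 and 8.58 (median 8.16) in knockdown set 1, with shControl at 7.81, 7.94 and 8.0 in set 2 and 7.46, 7.51 and 7.33 in set 1. The knockdowns overlapped shControl in set 2 and not in set 1, and the differences were 0.69 ± 0.16 (adjusted p = 0.000398) and 0.73 ± 0.16 (adjusted p = 0.000248). SNORD3D was higher by 1.22 ± 0.20 in set 2 and 0.86 ± 0.20 in set 1 (adjusted p = 6.53e-06 and 0.000578). SNORD3C, a further copy with no containing gene, was called higher in set 1 (0.75 ± 0.26, adjusted p = 0.0153), while in set 2 it differed by 0.48 ± 0.26 (adjusted p = 0.113) and between the knockdown sets by 0.07 ± 0.16 (adjusted p = 0.735). SNORD13, which also had no containing gene, was lower in both sets, as given above.

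Called in both sets in the same direction, shATM against shControl gave 28 members higher and 6 lower (14.3% and 17.9% of all genes). The arrays labelled shATR gave 38 and 5 (15.1% and 18.2%), shCHK1 29 and 4 (15.1% and 18.4%) and shCHK2 37 and 4 (15.3% and 18.6%). For shATM and shCHK1 the higher members, 14.1% and 14.6%, were near the share of all genes. In either direction 17.1%, 21.6%, 16.6% and 20.6% of the members were called. Those shares were below the 32.2%, 33.3%, 33.4% and 33.9% of all genes. These comparisons share their shControl arrays. Averaged over sets, 25 members (12.6%) differed among the 4 knockdowns by a moderated F test, against 18.5% of all genes. The mean was lowest in shATM cells for 19 of the 25 and highest in shCHK2 cells for 16. The count of 25 became 51 with median scaling and 0 when the means of the 10 groups were fitted. In that fit 12 of 199 members and 789 of 13721 genes had an unadjusted p under 0.05 (limma). Set by set, shATM was the lowest of the 4 for 22 of the 25 in set 2, for 14 in set 1 and for 12 in both. The 25 were picked on these same arrays, so these tallies describe them and are no further test. The same tallies were not made over all genes. Against the mean of the other 3 knockdowns, shATM had 25 members lower and 2 higher (7.73% and 8.45% of all genes), and shCHK2 had 12 higher and 1 lower (4.86% and 6.4%). The arrays labelled shATR had 1 higher and none lower (unadjusted p under 0.05 gave 20 higher and 7 lower, and 0.991% of all genes were called, 0.678% higher and 0.313% lower), and shCHK1 had 2 higher and 1 lower (4.56% of all genes).

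SNORA24, an H/ACA RNA of 18S ribosomal RNA within SNHG8, had the smallest adjusted p among these (7.2e-05). In set 2 it averaged 7.59 ± 0.22 for shATM, 8.49 ± 0.21 for the label shATR, 8.34 ± 0.03 for shCHK1, 8.71 ± 0.20 for shCHK2 and 8.23 ± 0.06 for shControl (log2, SD, n = 3 each). In set 1 the means were 7.18 ± 0.12 for shATM, 7.34 ± 0.18 for the label shATR, 6.83 ± 0.19 for shCHK1, 7.46 ± 0.33 for shCHK2 and 8.24 ± 0.16 for shControl. The mean of the knockdowns was below shControl in set 1 (-1.04 ± 0.12, adjusted p = 2.98e-08). In set 2 shATM was lower than shControl (-0.64 ± 0.15, adjusted p = 0.000764) and shCHK2 higher (0.49 ± 0.15, adjusted p = 0.00742). SNHG8 was lower in set 1 as well (-0.82 ± 0.08, adjusted p = 5.37e-10) and differed by 0.16 ± 0.08 in set 2 (adjusted p = 0.0691). Both lie on chromosome 4, whose 492 tested genes had medians against shControl of -0.099 in set 2 and -0.307 in set 1. The part of that shift in these differences was not tested.

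SNORA40 in set 2 averaged 7.02 ± 0.20 for shATM, 7.31 ± 0.08 for the label shATR, 7.62 ± 0.26 for shCHK1 and 7.95 ± 0.13 for shCHK2, against 5.20 ± 0.16 in shControl (adjusted p of the F test 0.000218). All 4 were above shControl, and shATM was the lowest. SNORD49A, within SNHG29, had set 2 means of 7.78 ± 0.20 for shATM, 8.32 ± 0.05 for the label shATR, 7.96 ± 0.11 for shCHK1 and 8.29 ± 0.13 for shCHK2, against 6.81 ± 0.09 in shControl (adjusted p of the F test 0.000851). SCARNA9 did not share that order. In set 2 it was 6.92 ± 0.30 for shATM, 5.96 ± 0.34 for the label shATR, 6.85 ± 0.10 for shCHK1 and 6.15 ± 0.16 for shCHK2, against 9.04 ± 0.12 in shControl. In set 1 it was 6.39 ± 0.26 for shATM, 7.47 ± 0.18 for the label shATR, 7.60 ± 0.23 for shCHK1 and 6.95 ± 0.03 for shCHK2, against 8.26 ± 0.14 in shControl. The lowest knockdown was not the same in both sets (adjusted p of the F test over both sets 0.000413).

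Genes of snoRNA biology were read from lists chosen with earlier results of these data known. Of the 4 core box C/D proteins, all were higher in knockdown set 2 than in set 1. Fibrillarin (FBL), the methyltransferase, ranged between 11.68 and 12.32 (median 12.10) in knockdown set 2 and between 11.18 and 11.55 (median 11.32) in knockdown set 1, with shControl between 12.04 and 12.20 in set 2 and between 11.98 and 12.06 in set 1. Its set difference of 0.77 ± 0.05 (adjusted p = 3.06e-12) thus went with a level below shControl in set 1 (-0.69 ± 0.09) and one not called in set 2 (-0.02 ± 0.09). Of the 4 core H/ACA proteins 2 were higher in set 2, DKC1 (dyskerin, the pseudouridine synthase) by 0.44 ± 0.05 and GAR1 by 0.62 ± 0.05. Of 20 tested assembly and Cajal body factors 13 were higher and 2 lower, while 25.1% of all genes were higher and 33.5% lower. Against shControl 12 of these factors were higher and 6 lower in set 2 (28.2% and 32.1% of all genes). In set 1, 9 were higher and 7 lower (28.1% and 27.6%). SMN1, which assembles small nuclear ribonucleoproteins and has a near-identical copy that may share its signal, differed by 1.01 ± 0.09 between the knockdown sets.

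Of 18 tested noncoding host genes, 15 were higher and 1 lower in knockdown set 2 than in set 1, with a median of 0.46, while 25.1% of all genes were higher and 33.5% lower. Against shControl they split, with 11 higher and 2 lower in set 2 (28.2% and 32.1% of all genes) and 3 higher and 8 lower in set 1 (28.1% and 27.6%). DANCR, the host with the largest set difference, ranged between 10.51 and 11.29 (median 10.91) in knockdown set 2 and between 9.35 and 9.88 (median 9.63) in knockdown set 1, with shControl between 10.03 and 10.20 in set 2 and between 10.29 and 10.40 in set 1. Its level was above shControl in set 2 (0.79 ± 0.09, adjusted p = 8.22e-09) and below it in set 1 (-0.72 ± 0.09, adjusted p = 5.2e-08). DANCR also lies on chromosome 4, whose medians against shControl were -0.099 in set 2 and -0.307 in set 1. Of 22 tested small noncoding RNAs of other kinds, 2 were higher and 8 lower between the knockdown sets, with a median of -0.04, against the same shares of all genes (25.1% and 33.5%). Among the lower were RNU4ATAC (-0.80 ± 0.15) and RNU1-3 (-0.53 ± 0.10), both small nuclear RNAs (the second has near-identical copies), and TERC (-0.46 ± 0.10), the telomerase RNA, which carries an H/ACA domain.

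Over the 10 group means, the genes outside the set whose pattern was most like the median deviation of all 199 members were RIOK1, PRPS1 and FAM76A, with Pearson's r of 0.988, 0.988 and 0.986, as a description.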

How the data were processed

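Levels came from the deposited non-normalized table, in which the authors give a linear intensity and a detection p-value per probe and array, per the file headers, and the values are uncorrected as far as they show. The authors' deposited log2 values, quantile normalized as judged from their equal sorted columns, served as an alternative. The software and version that made the tables are not given in the sources used here. RNA was total RNA, amplified and biotin labelled, per the labels. The neqc function of limma 3.58.1 (R 4.3.3, offset 16) corrected the background, with control signal estimated through the detection p-values, and applied quantile normalization, which gave log2 levels. The arrays detected between 18984 and 21732 probes each, and their number limits the precision. Of 47231 probes, 30113 had a single symbol, 8 several and 17110 none. A linear model with a mean per group (20 residual degrees of freedom) was fitted to 13721 genes, with two-sided moderated tests and Benjamini-Hochberg adjustment over all genes, and was tested on simulated data. The members, lists and comparisons were chosen with earlier results of these data known. Named were, per comparison, the 3 members with the largest called difference in each direction, the 4 with the smallest adjusted p among knockdowns and the 2 with the highest level per class. RNAs sharing a containing gene, and those marked in the text, were added after their values were seen. Containing genes came from RefSeq positions. Alternatives covered the authors' values, background, scaling, detection filters, probe choice, the replicate block, variance model, group means, chromosome medians and each array left out. Values of some genes are not reported here.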

Additional observations from a re-analysis of the deposited data

Results flagged for a closer look

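The set difference differed between knockdown and shControl cells for 73 members by the interaction term, a test of the difference itself. That is 36.7% of the members, against 37% of all genes, so the total does not set the members apart. In log2, set difference of the knockdowns minus that of shControl, the interaction was 2.05 for SNORD27, 2.02 for SNORD58B, 2.02 for SNORA40, 1.69 for SNORD60, 1.52 for SNORD96B, 1.18 for SNORD49A, 1.09 for SNORA24, 1.02 for SNORD80, 0.94 for SNORD36A, 0.66 for SNORD110 and 0.52 for SNORD89. It was -2.10 for SNORA12, -1.60 for SCARNA18, -1.42 for SCARNA9, -1.29 for SNORA79, -0.89 for SNORD13 and -0.56 for SNORA67. These are named members whose interaction passed the adjusted threshold. The values of SNORD27 and SNORA79 are fitted ones that rest on groups in which most arrays did not detect the RNA (1 of 3 arrays of shControl set 2 detected SNORD27 and 3 of 12 of knockdown set 2 detected SNORA79), so their sizes are not settled.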

How the results depend on the processing

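No count or named difference changed direction under any alternative run. Fitting the means of the 10 groups leaves few residual degrees of freedom. It gave 1 called member between the shControl sets, where 2.05% of all genes were called. For the interaction it gave 19 (11.6% of all genes), and for knockdowns against shControl in set 1 it gave 40 (38.1% of all genes). Among the 4 knockdowns it gave 0, and no gene was called. There 12 of 199 members and 789 of 13721 genes had an unadjusted p under 0.05 (limma). Under this fit SCARNA9 (0.79 between shControl sets, -1.42 in the interaction, -1.15 in set 1), SNORD13 (0.76) and SCARNA18 (-1.60) were no longer called. Median scaling gave 51 members differing among the knockdowns and 25 called the same way between sets in all 4. The cause was not tested. Leaving out each array gave 6 to 15 members between shControl sets, 132 to 141 between knockdown sets, 62 to 76 for the interaction, 95 to 112 and 60 to 75 against shControl in sets 2 and 1, 31 to 36, 39 to 45, 31 to 37 and 38 to 44 for shATM, shATR, shCHK1 and shCHK2 in both sets, 19 to 29 among the knockdowns, and 38 to 45 in all 4. The replicate numbers were not a term of the main fit. Deviations of arrays with the same number correlated at -0.06 to 0.48 (median 0.0027), and those with different numbers at -0.32 to 0.16 (median -8.14e-05). The medians were alike, but the highest correlations had the same number, and whether some groups were paired was not tested. Of 30 arrays, 12 correlated best with their own number. With the replicate block the calls were 14 between shControl sets, 141 between knockdown sets, 75 for the interaction, 107 and 75 against shControl in sets 2 and 1, and 30 among the knockdowns, and no call count moved by over 1.5 times. Group means gave no value for calls in both sets or in all 4 knockdowns, and chromosome medians gave values without calls. For median scaling, the left-out arrays and the replicate block the share of all genes called was not taken. Their counts show only how far the members' own calls moved. The 49 members detected on 3 to 14 arrays lie near background, where differences are compressed.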
